A study of Mus musculus with 18 samples.

Results

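Ccl3, Ccl4, Ccl5, Ccl6 and Ccl9 are CC chemokines that macrophages release, and these 5 genes were selected by name from the 55401 genes counted in 18 mouse embryonic fibroblast (MEF) libraries. MEFs are primary cultures from mid-gestation embryos, grown after the head and viscera were taken away, so a culture can carry cells other than fibroblasts. The libraries were made as 2 series of 3 groups with 3 libraries each. In the S6K1 series, S6K1 wild-type (WT) MEFs carried an empty vector (EV) or a constitutively active HRAS allele (RAS, G12V), and S6K1 knockout (KO) MEFs carried RAS. In the S6K1/S6K2 series, WT MEFs carried EV or RAS, and S6K1/S6K2 double knockout (DKO) MEFs carried RAS. S6K1 WT and KO embryos were littermates, whereas the WT embryos of the S6K1/S6K2 series came from WT mothers at an earlier stage of the breeding. EV was a pBABEpuro vector and RAS was carried by an MSCV-neo vector, so the vector and RAS cannot be told apart. KO and DKO MEFs with EV were not analysed here, so a difference that loss of the kinases makes without RAS cannot be told apart from one it makes with RAS.

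CC chemokines are small secreted proteins that draw leukocytes along a gradient by activating G protein-coupled receptors. Ccl3, Ccl5, Ccl6 and Ccl9 are ligands of the receptor Ccr1. Ccl6 and Ccl9 are rodent chemokines made in quantity by myeloid cells. Ccl3 and Ccl4 are made rapidly by activated macrophages, and Ccl5 is also made by T cells and by fibroblasts exposed to virus or interferon. Cells that stop dividing under RAS release a mixture of inflammatory proteins in which chemokines are prominent, and S6K1 and S6K2 are kinases that act downstream of mTORC1.

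The 5 genes lay within 1 cluster on chromosome 11 of the mouse genome (build NCBIM37). Ccl5 (ENSMUSG00000035042.2) spanned chr11:83339280-83344020 on the minus strand, Ccl9 (ENSMUSG00000019122.8) chr11:83386421-83392138 on the minus strand and Ccl6 (ENSMUSG00000018927.3) chr11:83401384-83406589 on the minus strand. Ccl3 (ENSMUSG00000000982.5) spanned chr11:83461346-83462857 on the minus strand, and Ccl4 (ENSMUSG00000018930.3) chr11:83476086-83478185 on the plus strand. The encoded chains were 92 residues for Ccl3, 92 for Ccl4, 91 for Ccl5, 116 for Ccl6 and 122 for Ccl9, so Ccl6 and Ccl9 encoded the longer proteins. In the annotated transcripts, no 50-base window of Ccl3, Ccl4, Ccl5 or Ccl6 was shared with another gene, and 56 of 2957 windows of Ccl9 (1.89%) were shared, none of them with another CC chemokine. In the RefSeq gene table of a later build, Ccl4 starts inside Ccl3 on the opposite strand, and the strand setting of the counting is not given in the sources used here, so reads of that overlap cannot be told apart.

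Ccl6 was the member that passed the test by group with RAS in both series, and its promoter is shown beside that of its neighbour Ccl9. By group Ccl9 passed in neither series. With the replicate number as a block, edgeR called Ccl9 higher with RAS in both (adjusted p = 3.27e-05 and 0.0415). The 250 bases before each start site were taken from RefSeq (build GRCm38.p6, minus strand), at chr11:83593088-83593337 for Ccl6 and chr11:83578637-83578886 for Ccl9. They are written 5′ to 3′, and capitals mark runs of at least 12 bases found in both.
Ccl6: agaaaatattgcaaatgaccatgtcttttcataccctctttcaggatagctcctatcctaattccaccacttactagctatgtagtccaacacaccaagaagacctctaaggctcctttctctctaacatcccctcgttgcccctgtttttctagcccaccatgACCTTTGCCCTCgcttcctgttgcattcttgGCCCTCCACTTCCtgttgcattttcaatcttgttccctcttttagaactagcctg
Ccl9: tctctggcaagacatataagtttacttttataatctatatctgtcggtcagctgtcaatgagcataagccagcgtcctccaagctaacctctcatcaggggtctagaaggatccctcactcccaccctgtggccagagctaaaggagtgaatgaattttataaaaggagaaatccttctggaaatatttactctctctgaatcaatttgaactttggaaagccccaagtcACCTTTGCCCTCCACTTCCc
Both promoters held ACCTTTGCCCTC and GCCCTCCACTTCC. In Ccl6 these runs began 86 and 55 bases before the start site, and in Ccl9 they overlapped and began 20 and 14 bases before it. Motifs were searched on both strands in these promoters and in that of Ccl3, and RefSeq entries were matched for these 3 of the 5 genes. The interferon motif GAAANNGAA, present in 7.13% of 32851 promoters, matched once, in Ccl3, on the opposite strand 39 bases before the start site, where the coding strand reads ttccatttc. The AP-1 motif TGAGTCA (4.46% of promoters), the PU box GAGGAAG (10.6%) and the C/EBP motif TTGCNNAA (9.56%) had no match in the 3 windows.

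Depth ranged from 8319445 to 14402442 counts per library. Levels are counts per 1000000 (CPM) with 1 scale over all 18 libraries, and 3 counts, taken as the floor, equalled 0.208 to 0.361 CPM. The labels were checked with the targeted genes. Rps6kb1, which encodes S6K1, was at 64.0 to 75.0 CPM in the WT and 23.8 to 37.5 CPM in the KO libraries with RAS, and at 73.6 to 82.8 CPM against 34.2 to 39.2 CPM in the DKO comparison. Rps6kb2, which encodes S6K2, was at 23.8 to 28.5 CPM in the WT libraries with RAS and 2.65 to 3.0 CPM in DKO RAS. A list of 10 fibroblast genes was detected in every group, and a list of 29 macrophage genes, none of them at 0 in any group, was detected as well. The summed level of the macrophage list ran from 959 to 4708 CPM in S6K1 EV, 1023 to 5284 in S6K1 WT RAS and 360 to 1202 in KO RAS. It ran from 224 to 2016 CPM in the EV, 238 to 1342 in the WT RAS and 102 to 350 in the DKO RAS libraries of the S6K1/S6K2 series. Lyz2, which encodes the lysozyme of macrophages and was the most abundant gene of the list, was at 1565, 1145 and 294 CPM in S6K1 EV, 1939, 1872 and 397 CPM in S6K1 WT RAS and 464, 420 and 142 CPM in the KO libraries. The EV libraries of the other series had 586, 78.2 and 92.9 CPM, WT RAS had 536, 103 and 154, and DKO RAS had 122, 29.0 and 41.2. Lyz2 was thus lowest in replicate 3 of each S6K1 group and highest in replicate 1 of each S6K1/S6K2 group. In bulk RNA, fewer cells of a type and less RNA per cell cannot be told apart.

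To investigate how RAS changed the chemokines, WT RAS was compared with WT EV in each series. Ccl6 rose in both series, by 4.68 on the log2 scale (SE 0.82) in the S6K1 series and by 4.34 (SE 0.89) in the S6K1/S6K2 series. None of the other 4 members passed edgeR's test by group in the S6K1 series, nor did Ccl9 in the other, where Ccl3, Ccl4 and Ccl5 were too low to be tested. Ccl9 was higher in RAS in each of the 6 line pairs, and Ccl3, Ccl4 and Ccl5 were mostly higher in the S6K1 series and mostly lower in the S6K1/S6K2 series. The share of all genes that were higher in every pair was not taken.

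Ccl6 in the 3 EV libraries of the S6K1 series was at 6.48, 4.69 and 1.11 CPM, and in the 3 WT RAS libraries at 111, 184 and 32.7 CPM (replicates 1 to 3). The S6K1/S6K2 series had 1.53, 0.347 and 0.516 CPM in EV against 28.9, 9.31 and 11.2 CPM in WT RAS. Every WT RAS library lay above every EV library of its series, as did 15.9% of all tested genes in the S6K1 series and 20.9% in the S6K1/S6K2 series. By edgeR's quasi-likelihood test the adjusted p was 0.00885 in the S6K1 series and 0.00784 in the S6K1/S6K2 series. EV and RAS of 1 number were taken as 1 line of MEFs, which the labels give by number only. With the line as a block, the increase was 4.69 (SE 0.23, adjusted p = 9e-07) and 4.48 (SE 0.39, adjusted p = 0.000439), again by edgeR. The increase within single lines ran from 3.99 to 5.15 in the S6K1 series and from 3.53 to 3.86 in the other, on the log2(CPM + 0.5) scale.

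In the EV libraries of the S6K1 series Ccl9 was at 36.5, 28.2 and 11.4 CPM, and in WT RAS at 126, 133 and 25.5 CPM. Its EV and WT RAS groups overlapped, because WT RAS replicate 3 lay below EV replicates 1 and 2, although each line was higher with RAS by 1.78, 2.22 and 1.12 on the log2(CPM + 0.5) scale. In edgeR, the log2 difference was 1.88 (SE 0.65, adjusted p = 0.101) by group and 1.76 (SE 0.16, adjusted p = 3.27e-05) with the line as a block. Without WT RAS replicate 3, it was 2.32 with an edgeR adjusted p of 0.022. Ccl9 in the S6K1/S6K2 series was at 21.6, 1.56 and 5.16 CPM in EV and 29.9, 5.66 and 8.40 CPM in WT RAS. These groups overlapped widely, since replicate 1 was far above the others in both. The edgeR difference was 0.63 (SE 0.93, adjusted p = 0.645) by group and 0.90 (SE 0.27, adjusted p = 0.0415) with the block. It was 2.12 without EV replicate 1 and -0.44 without WT RAS replicate 1.

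Ccl3 in the S6K1 series was at 6.48, 6.13 and 1.84 CPM in EV and 17.3, 16.9 and 2.66 CPM in WT RAS. Ccl4, its close relative, was at 6.06, 5.22 and 1.29 CPM in EV and 13.4, 16.8 and 1.21 CPM in WT RAS. Replicates 1 and 2 were higher with RAS for both genes, and replicate 3 was low in both groups. The edgeR differences were 1.31 (SE 0.71, adjusted p = 0.289) for Ccl3 and 1.28 (SE 0.80, adjusted p = 0.359) for Ccl4 by group, and 1.25 (SE 0.19, adjusted p = 0.000655) and 1.19 (SE 0.31, adjusted p = 0.0137) with the block. Ccl5 was at 1.07, 1.14 and 0.368 CPM in EV and 2.22, 2.26 and 0.403 CPM in WT RAS, with an edgeR difference of 0.86 (SE 0.65, adjusted p = 0.441).

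In the S6K1 series, 1 of the 5 members was called higher by group, against 7.15% of all 14036 tested genes, and 4 of 5 were called higher with the block, against 18.1% of genes. The median difference of the 5 members was 1.31, beside 0.00 over all tested genes. In the S6K1/S6K2 series, 1 of the 2 members that passed the filter on low counts was called higher, against 13.5% of 13881 genes, and with the block both were called, against 15% of genes.

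Ccl3, Ccl4 and Ccl5 were too low in the S6K1/S6K2 series to pass that filter. Their counts were 71, 7 and 6 in EV and 18, 1 and 7 in WT RAS for Ccl3, and 35, 5 and 10 against 17, 2 and 1 for Ccl4. Those of Ccl5 were 87, 7 and 9 in EV and 8, 8 and 4 in WT RAS. The high values were those of EV replicate 1, the library with the most macrophage RNA among the EV libraries of that series. Without a filter, edgeR gave -1.41 for Ccl3 (adjusted p = 0.266), -1.02 for Ccl4 (adjusted p = 0.485) and -2.03 for Ccl5 (adjusted p = 0.0413), and 87 of the Ccl5 counts were those of that library. DESeq2 gave an adjusted p of 0.106 for Ccl5.

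**Figure D1:**
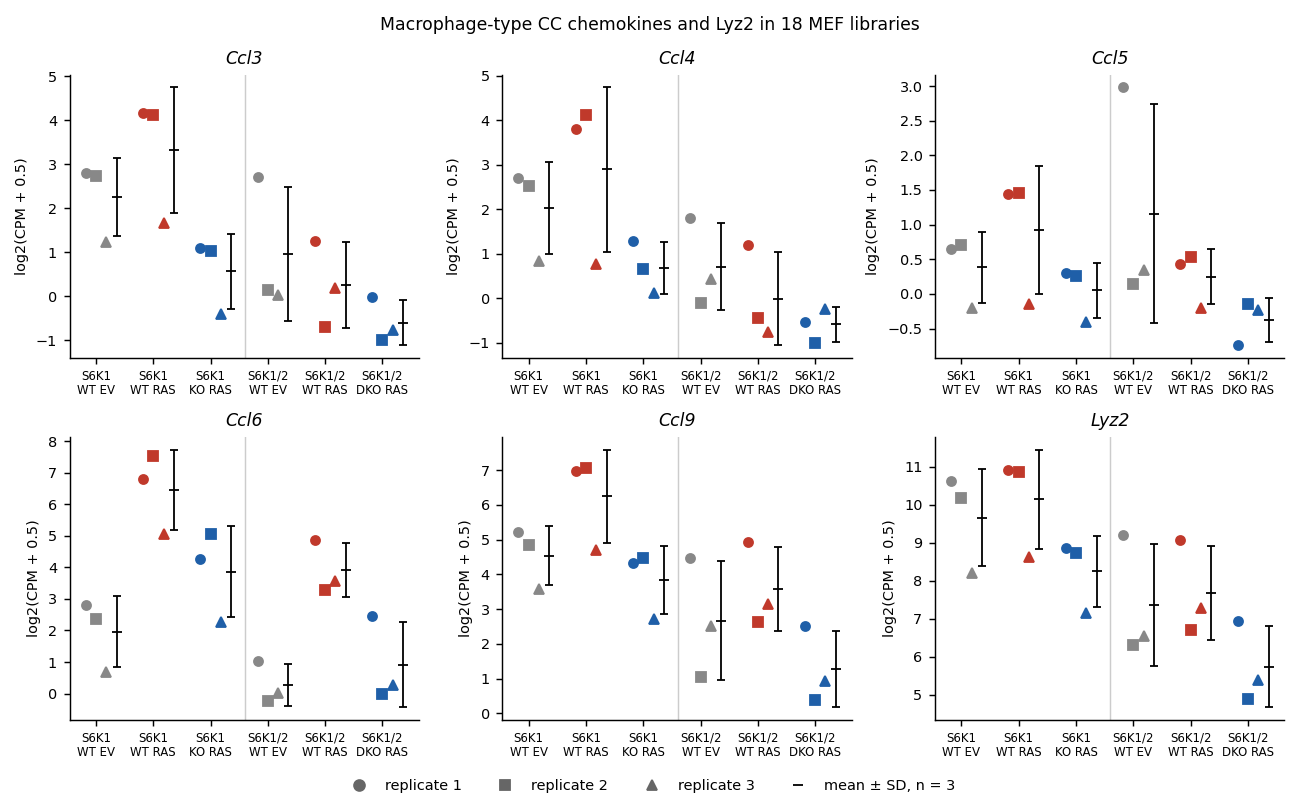
Level of each chemokine and of Lyz2 in the 18 libraries, as log2(CPM + 0.5). Points are libraries, with 3 in each of the 6 groups, and bars are the mean ± SD; the Ccl6 points of the WT RAS groups lie above all EV points of their series, while the Lyz2 points of EV and WT RAS overlap.

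The macrophage list as a whole had no increase of the size of that of Ccl6. Lyz2 differed by 0.46 (SE 0.70, edgeR adjusted p = 0.722) in the S6K1 series and 0.06 (SE 0.88, edgeR adjusted p = 0.968) in the S6K1/S6K2 series, and with the line as a block it rose by 0.47 in the former (SE 0.13, edgeR adjusted p = 0.0219). Of the macrophage list, 18 of 28 tested genes were higher in the S6K1 series, with a median of 0.10, and 21 of 27 were lower in the S6K1/S6K2 series, with a median of -0.79. The medians over all genes were 0.00 and -0.02. In that list 1 gene passed the test by group, Pf4, a chemokine of platelets and macrophages, which rose by 2.72 in the S6K1 series (edgeR adjusted p = 0.0454). With the block, 9 of the list were called higher and 4 lower in the S6K1 series, and 2 higher and 10 lower in the other. A list of 7 neutrophil genes summed to at most 0.172 CPM in EV and to between 6.04 and 13.7 CPM in WT RAS, with 4 of its 7 genes at 0 in each WT RAS group. A list of 7 epithelial genes summed to at most 10.5 CPM in EV and to between 98.3 and 163 CPM in WT RAS. The part of either list in the chemokine values was not tested.

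The question of whether S6K1 loss changed the chemokines was addressed by comparing KO RAS with WT RAS. All 5 members were lower in KO RAS, with log2 differences between -1.48 and -3.37, and none passed edgeR's test by group, where 0.00712% of the 14036 genes, a single gene, did so. An unadjusted p under 0.05 was reached by 4 of the 5 members and by 963 of all 14036 genes. DESeq2 called 96 of 14758 genes, among them 2 of the 5 members, Ccl3 (adjusted p = 0.00438) and Ccl4 (adjusted p = 0.0297). WT and KO were littermates in the study, but the labels do not say which numbers shared a litter, so pairs were taken by number. With these pairs by number as a block, edgeR called all 5 lower, against 3.61% of all genes.

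Ccl6 in KO RAS was at 18.8, 32.6 and 4.31 CPM, against 111, 184 and 32.7 CPM in WT RAS. The highest KO library and the lowest WT library nearly touched, at 32.6 and 32.7 CPM. Within each same-numbered pair, KO differed by -2.52, -2.48 and -2.79 on the log2(CPM + 0.5) scale. The edgeR difference was -2.51 (SE 0.76, adjusted p = 0.587) by group and -2.57 (SE 0.19, adjusted p = 3.75e-05) with the block. Ccl9 in KO RAS was at 19.7, 21.9 and 6.08 CPM, all below the WT RAS values of 126, 133 and 25.5 CPM. Its edgeR difference was -2.54 (SE 0.65, adjusted p = 0.587) by group and -2.46 (SE 0.17, adjusted p = 2.9e-05) with the block.

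The largest difference among the members was that of Ccl3, at 1.65, 1.54 and 0.253 CPM in KO RAS and 17.3, 16.9 and 2.66 CPM in WT RAS, with no overlap. It amounted to -3.37 (SE 0.81, edgeR adjusted p = 0.587) by group and -3.34 (SE 0.25, edgeR adjusted p = 2.9e-05) with the block. Of the 14036 genes, 4.17% had every KO RAS library below every WT RAS library. Ccl4 in KO RAS was at 1.93, 1.08 and 0.591 CPM and Ccl5 at 0.735, 0.691 and 0.253 CPM. Both overlapped with WT RAS through its replicate 3. In edgeR, Ccl4 differed by -3.09 (SE 0.90, adjusted p = 0.587) by group and -2.98 (SE 0.40, adjusted p = 0.00121) with the block, and Ccl5 by -1.48 (SE 0.70, adjusted p = 0.763) and -1.45 (SE 0.35, adjusted p = 0.0425).

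DKO RAS was then compared with WT RAS of the S6K1/S6K2 series. Ccl6 was at 5.01, 0.50 and 0.708 CPM in DKO RAS, below all 3 WT RAS libraries at 28.9, 9.31 and 11.2 CPM, with an edgeR difference of -3.01 (SE 0.80, adjusted p = 1). Ccl9 was at 5.21, 0.801 and 1.42 CPM in DKO RAS, and at 29.9, 5.66 and 8.40 CPM in WT RAS, with an edgeR difference of -2.58 (SE 1.00, adjusted p = 1). Both thus had DKO values below every WT RAS value, as had 3.05% of the 13881 genes tested. Neither passed edgeR's test or DESeq2, while both had an unadjusted p under 0.05 in edgeR (0.00477 for Ccl6 and 0.0304 for Ccl9), as had 179 of the 13881 genes, and 0.0144% of genes, 2 in number, passed as lower. Ccl3, Ccl4 and Ccl5 had no more than 5 counts in any DKO RAS library and no more than 18 in any WT RAS library, and they did not pass the filter on low counts. Without a filter, all 5 members were lower in edgeR, and Ccl6 passed (-2.99, adjusted p = 0.0074). In that fit Ccl3 differed by -2.14 (95% interval -4.26 to -0.03), Ccl4 by -1.82 (95% interval -3.87 to 0.24) and Ccl5 by -1.26 (95% interval -3.01 to 0.50), each with an edgeR adjusted p of 1.

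**Figure D2:**
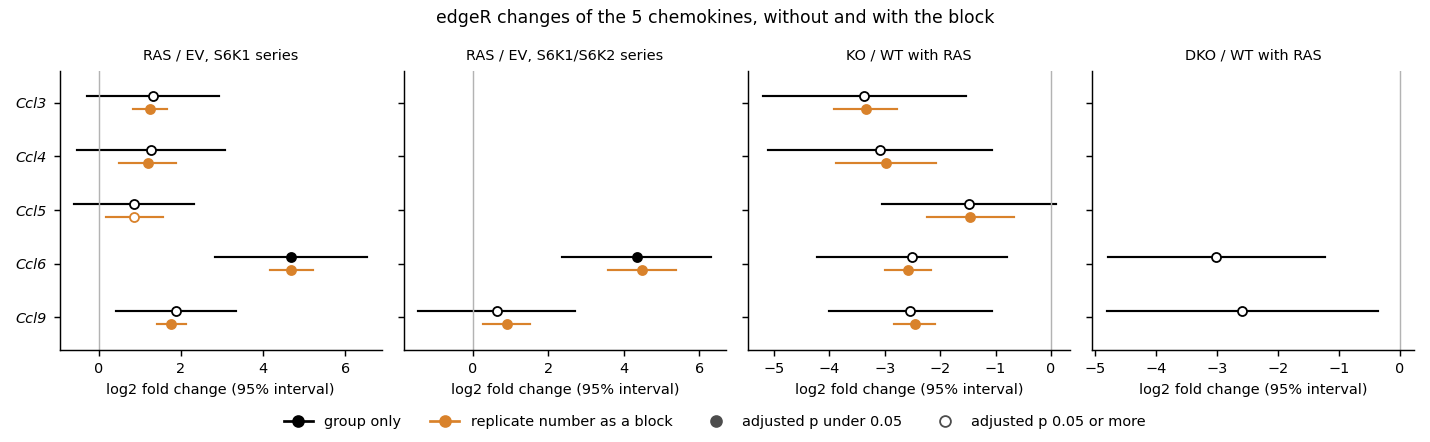
Fitted log2 fold changes of the 5 chemokines with 95% intervals in 4 comparisons, RAS against EV in each series and KO or DKO against WT with RAS. Black is the fit by group and orange the fit with the line or litter as a block, drawn where the numbers were taken as pairs. Filled points have an edgeR adjusted p under 0.05, and Ccl6 is filled in both RAS panels.

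Macrophage genes were lower in KO and DKO as well. All 28 tested genes of the macrophage list were lower in KO RAS, with a median of -2.21, and all 27 tested were lower in DKO RAS, with a median of -1.89, beside 0.03 and -0.00 over all genes, and none passed edgeR by group in either. With the pairs by number as a block, edgeR called 27 of the 28 lower in KO RAS. Lyz2 differed by -2.0 (SE 0.71, edgeR adjusted p = 0.588) in KO by group, by -1.87 with the block (SE 0.13, edgeR adjusted p = 3.91e-05), and by -2.06 (SE 0.88, edgeR adjusted p = 1) in DKO. Of the other abundant macrophage genes, C1qa and C1qb, which encode chains of complement C1q, differed by -2.50 and -2.44 in KO and by -2.07 and -1.98 in DKO, and Mpeg1, which encodes perforin-2, by -2.17 and -1.81. The list of 14 interferon-stimulated genes was lower in 14 of 14 members in both, with medians of -2.16 and -2.32 and no gene passing by group. With the pairs by number as a block, 14 of 14 passed in KO. Its summed level ran from 302 to 2190.5 CPM with S6K1 and 127 to 697 without it, and from 99.3 to 681 CPM with both kinases and 67.9 to 125 without them. The part of these genes in the chemokine differences was not tested by the fits.

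The 2 series were compared by testing the difference between their effects in 1 model. For RAS, edgeR called 0% of the 14483 genes, against 1819 with an unadjusted p under 0.05 and 139 called by DESeq2. Ccl5 had a difference of -2.93 (SE 1.23, edgeR adjusted p = 0.358), the S6K1/S6K2 series being lower, and it was the 1 member with an unadjusted p under 0.05 by group. With the replicate numbers of each series as blocks, 4 of the 5 members had an unadjusted p under 0.05, as had 3457 of all genes, and edgeR called 58 genes and none of the members. In that fit the difference was -2.44 for Ccl3 (SE 0.50, edgeR adjusted p = 0.0573) and -2.48 for Ccl5 (SE 0.95, edgeR adjusted p = 0.147), and all 5 members were lower in the S6K1/S6K2 series. Ccl6 had a difference of -0.36 by group, with a 95% interval from -3.30 to 2.58, and of -0.26 with the blocks, with a 95% interval from -1.34 to 0.81. For loss, 0.0069% of genes, a single gene, was called, and the difference was 0.01 for Ccl9 (95% interval -2.75 to 2.77) and -0.45 for Ccl6 (95% interval -3.01 to 2.10), and no member had an unadjusted p under 0.05 in edgeR or DESeq2.

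Levels per length placed the members in order. In S6K1 EV, Ccl9 was at 8.43 CPM per kilobase of transcript, Ccl4 at 6.35, Ccl3 at 6.29, Ccl6 at 2.84 and Ccl5 at 1.61 (means of 3 libraries). In S6K1 WT RAS, Ccl6 came first at 75.7 ± 52.5 CPM per kilobase (SD, n = 3), before Ccl9 at 31.6 ± 20.02, Ccl3 at 16.1 ± 10.9, Ccl4 at 15.8 ± 12.4 and Ccl5 at 3.06 ± 1.99. Ccl6 thus went from the fourth place to the first, though the SDs of neighbours in this order overlapped. Across the 6 groups, Ccl3, Ccl4, Ccl6 and Ccl9 had their highest mean in S6K1 WT RAS, at 12.3 ± 8.35, 10.5 ± 8.18, 109 ± 75.6 and 94.9 ± 60.2 CPM. Ccl5 had its highest mean in the EV group of the S6K1/S6K2 series, at 2.92 ± 3.87 CPM, which came from replicate 1 at 7.39 CPM. DKO RAS had the lowest mean for Ccl3, Ccl4, Ccl5 and Ccl9, at 0.193 ± 0.262, 0.184 ± 0.177, 0.284 ± 0.163 and 2.48 ± 2.39 CPM. For Ccl6, the lowest mean was that of the S6K1/S6K2 EV group, at 0.798 ± 0.639 CPM. Neighbouring groups in this order overlapped for each member, except for 2 neighbours of Ccl6, S6K1 WT RAS above KO RAS and S6K1/S6K2 WT RAS above S6K1 EV.

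To ask how closely the chemokines followed macrophage RNA, each was set against Lyz2 over the 12 RAS libraries, as log2(CPM + 0.5). Ccl9 followed Lyz2 most closely, with Pearson's r = 0.996 and Spearman's rho = 0.958 (permutation p = 1e-05 for both, the smallest that 100000 resamples can give). Ccl6 had r = 0.974 (permutation p = 1e-05) and rho = 0.902 (permutation p = 9e-05), and Ccl3 had r = 0.947 and rho = 0.951 (permutation p = 1e-05 for both). Ccl4 followed with r = 0.909 (permutation p = 2e-05) and rho = 0.881 (permutation p = 0.00032), and Ccl5 was the loosest with r = 0.764 (permutation p = 0.00388) and rho = 0.671 (permutation p = 0.0202). Leaving out the 2 libraries farthest from the median Lyz2 level gave r = 0.993 for Ccl9, 0.962 for Ccl6, 0.941 for Ccl3, 0.877 for Ccl4 and 0.718 for Ccl5. Here 10 relations were computed, the 5 members against Lyz2 and against the interferon list. Their permutations shuffled all 12 libraries without regard to series or genotype.

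The relations were recomputed within each series, since the series differed in macrophage RNA. In the 6 RAS libraries of the S6K1 series, r ran from 0.962 for Ccl4 to 0.993 for Ccl9, with exact permutation p between 0.00278 and 0.0167. Within the S6K1/S6K2 series it was 0.996 for Ccl9 (exact permutation p = 0.00278), 0.957 for Ccl6 (exact permutation p = 0.00556) and 0.952 for Ccl3 (exact permutation p = 0.00139). For Ccl4 it was 0.765 (exact permutation p = 0.0847) and for Ccl5 0.368 (exact permutation p = 0.465), and both genes had few counts there. As deviations from the 4 group means, with exact permutation within groups, r was 0.997 for Ccl9 (permutation p = 0.00309) and 0.959 for Ccl3 (permutation p = 0.000772). It was 0.931 for Ccl6 (permutation p = 0.00386), 0.825 for Ccl4 (permutation p = 0.017) and 0.508 for Ccl5 (permutation p = 0.205). Thus Ccl9, Ccl6, Ccl3 and Ccl4 varied with Lyz2 within groups too, though Ccl4 did not pass in the S6K1/S6K2 series alone. The relation of Ccl5 did not hold in the S6K1/S6K2 series or within groups. Shuffling within groups treated the 4 groups as independent. Same-numbered libraries of a series ran alike in Lyz2, which these p-values do not take into account.

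With the 6 EV libraries added, r to Lyz2 was 0.967 for Ccl9, 0.946 for Ccl3, 0.919 for Ccl4, 0.705 for Ccl6 and 0.584 for Ccl5. The value of Ccl6 was lower over 18 libraries than over 12, and its EV points lay below RAS points of a similar Lyz2 level. The interferon-stimulated genes were taken here as the mean of their log levels over the list, not as a sum. Against this mean, r over the 12 RAS libraries was 0.942 for Ccl4 (permutation p = 2e-05) and 0.933 for Ccl3 (permutation p = 5e-05). For Ccl9 it was 0.925 (permutation p = 3e-05), and for Ccl6 0.888 (permutation p = 8e-05). For Ccl5 it was 0.864 (permutation p = 0.00051). Ccl4 and Ccl5 had the higher r with the interferon list, and Ccl3, Ccl6 and Ccl9 the higher r with Lyz2, but the difference between these values was not tested. In the S6K1/S6K2 series alone, r to the interferon list was 0.972 for Ccl4 and 0.780 for Ccl9, and 0.813, 0.666 and 0.604 for Ccl3, Ccl6 and Ccl5, of which the last 3 had an exact permutation p of 0.0778, 0.103 and 0.254. None of the 5 p-values there was under 0.05 after Benjamini-Hochberg adjustment.

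**Figure D3:**
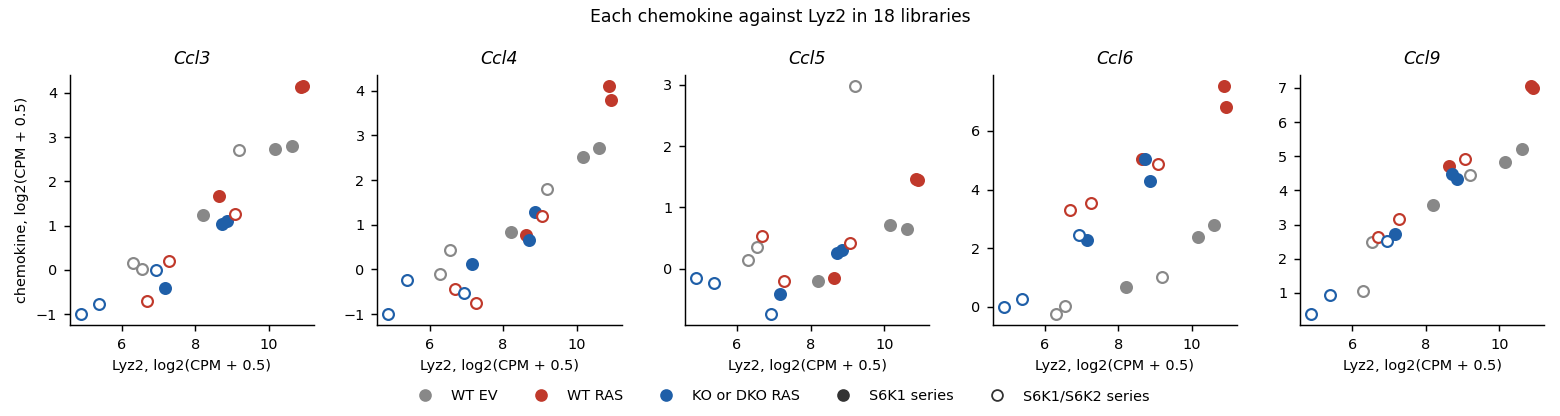
Each chemokine against Lyz2 in the 18 libraries, both as log2(CPM + 0.5), with 1 point per library and 1 symbol per group. For Ccl6 the EV points lie below RAS points of a similar Lyz2 level, and for Ccl9 the RAS points lie along a line (r = 0.996 over 12 libraries).

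Levels per Lyz2 count were then taken, a scaling chosen after seeing the data. Ccl6 had 3.76, 4.10 and 4.14 counts per 1000 Lyz2 counts in S6K1 EV (lowest, median and highest library) and 57.1, 82.4 and 98.2 in S6K1 WT RAS. The S6K1/S6K2 series had values of 2.61, 4.44 and 5.56 in EV and 54.0, 73.0 and 90.7 in WT RAS. The EV libraries of both series thus lay close together on this scale, and so did the WT RAS libraries, although their Lyz2 levels differed widely. Ccl6 was at 0.347 CPM in EV replicate 2 of the S6K1/S6K2 series, where the floor was 0.281 CPM. Its EV ratios in replicates 2 and 3 of that series rest on few counts. The change with RAS averaged 4.15 on the log2 scale over the 6 WT lines, between 3.61 and 4.57 and higher in 6 of 6 (exact permutation p = 0.0313, two-sided, the smallest that 6 lines allow). For Ccl9 it averaged 0.96 and was higher in 5 of 6 lines (exact permutation p = 0.0625). Ccl3, Ccl4 and Ccl5 had means of -0.38, -0.64 and -0.63 and were higher in 3, 2 and 3 of 6 lines. Over the other 28 genes of the macrophage list, the median mean change per Lyz2 count was -0.73. With RAS, 3 of the 28 were higher in 6 of 6 lines, 18 were lower in 6 of 6 and 7 went both ways. The mean change was 1.93 for Pf4, the highest of the list, and -1.0 for Csf1r, the receptor of macrophage colony-stimulating factor, which was named after its values were seen.

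Per Lyz2 count, differences between KO or DKO and WT RAS were smaller than per library total. Ccl6 had 30.2, 40.6 and 77.7 counts per 1000 Lyz2 counts in KO RAS and 17.2, 17.2 and 41.1 in DKO RAS. Over the 12 RAS libraries the difference was -1.15 on the log2 scale (exact permutation p = 0.015, labels permuted within each series, two-sided), with -0.75 in the S6K1 series and -1.55 in the other. Ccl9 had 42.4, 42.7 and 52.1 in KO RAS against 64.3, 65.2 and 71.0 in WT RAS, and 27.6, 34.4 and 42.7 in DKO RAS against 54.6, 55.1 and 55.7. It had the same direction in both series, with a mean difference of -0.60 (exact permutation p = 0.005, the smallest possible here). Genotypes did not overlap for Ccl9 in either series, but the share of all genes without overlap on this scale was not taken. The differences were -0.74 for Ccl3 (exact permutation p = 0.1), -0.01 for Ccl4 (exact permutation p = 0.985) and 0.66 for Ccl5 (exact permutation p = 0.26). Of the 10 tests per Lyz2 count, none was under 0.05 after Benjamini-Hochberg adjustment. With the summed macrophage list as the base instead, Ccl9 was higher with RAS by 1.30 on average, in 6 of 6 lines (exact permutation p = 0.0313), and its loss difference was -0.76 (exact permutation p = 0.005).

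**Figure D4:**
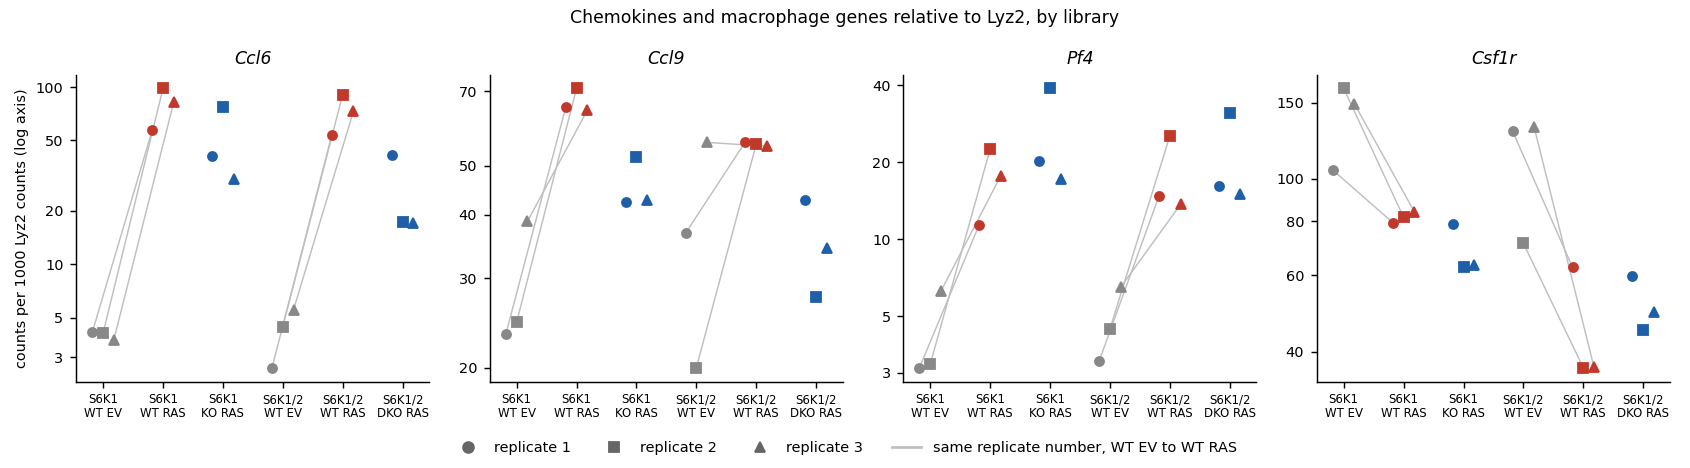
Counts of Ccl6, Ccl9, Pf4 and Csf1r per 1000 Lyz2 counts in each library, on a log axis, by group. Ccl6 is at 2.61 to 5.56 in the 6 EV libraries and at 54.0 to 98.2 in the 6 WT RAS libraries, and of the 2 macrophage genes shown, Pf4 is higher and Csf1r lower with RAS in each line.

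The genes whose profile over the 18 libraries was most like each member were found among 12803 genes with a mean of at least 1 CPM. For Ccl9 they were Itgam (r = 0.977), an integrin chain of myeloid cells, then Fcgr2b (0.972), Clec4d (0.968), Lyz2 (0.967) and Trf (0.966). For Ccl6 they were Pf4 (0.952), Cyp27a1 (0.929), Tnfaip3 (0.928), Me1 (0.915) and Pyhin1 (0.913). Lyz2 stood at place 4 for Ccl9 and at place 506 for Ccl6, so the pair that lies side by side differed in this respect. For Ccl3 they were Folr2 (0.977), Sp100 (0.974), Rasal3 (0.972), Tnf (0.970) and Ms4a6b (0.969). For Ccl4 they were Sp100 (0.976), Sp110 (0.972), Gpr84 (0.972), Clec4e (0.967) and F630028O10Rik (0.967). Ccl5 had the lowest values, with Nampt (0.872), Tapbp (0.861), Tmem200b (0.860), Ung (0.847) and Acat2 (0.836). Of the 50 genes most like each member, 12 for Ccl9, 8 for Ccl3, 4 for Ccl4, 2 for Ccl6 and none for Ccl5 were on the macrophage list. That list makes up at most 29 of the 12803 genes. Among the members themselves, Ccl3 and Ccl4 had r = 0.959 over 18 libraries and 0.960 over the 12 with RAS, and Ccl6 and Ccl9 had 0.824 and 0.985.

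Receptors were measured in the same libraries. Ccr1, the receptor of Ccl3, Ccl5, Ccl6 and Ccl9, had 190, 185 and 44 counts in S6K1 EV and 570, 658 and 135 in S6K1 WT RAS. The other series had 2, 8 and 12 counts in EV and 208, 80 and 48 in WT RAS, so every library with RAS lay above its EV partner (the share of all genes that did so was not taken). It rose by 4.21 in the S6K1/S6K2 series (SE 0.77, edgeR adjusted p = 0.00408), and the difference in the S6K1 series was 1.82 (edgeR adjusted p = 0.122) by group and 1.79 with the block (edgeR adjusted p = 5.11e-06). In KO RAS it had 202, 218 and 55 counts and in DKO RAS 152, 74 and 55, with edgeR differences of -1.48 (adjusted p = 0.759) and -0.40 (adjusted p = 1), and with the pairs by number as a block the first was -1.45 (adjusted p = 6.64e-05). Ccrl2, which binds chemerin, differed by 0.23 with RAS and -1.19 with S6K1 loss. Ccr3, Ackr1, Ackr2 and Ccr1l1 had at most 4, 8, 2 and 1 counts in any library.

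Of 14 other CC chemokines, 8 passed the filter on low counts. In the S6K1 series 6 of the 8 were higher with RAS and 1 passed, Ccl2, the main monocyte attractant, which rose by 2.22 (SE 0.57, edgeR adjusted p = 0.0397). In the S6K1/S6K2 series 7 of 8 were higher and 4 passed, Ccl8 (2.09, edgeR adjusted p = 0.0382), Ccl2 (1.96, edgeR adjusted p = 0.0025), Ccl7 (1.40, edgeR adjusted p = 0.0331) and Ccl25 (1.01, edgeR adjusted p = 0.0157). With the line as a block, 5 and 6 of the 8 passed in these series. The medians were 1.46 and 1.66, beside 0.00 and -0.02 over all genes. With S6K1 loss 6 of 8 were lower (median -1.18) and with loss of both kinases 8 of 8 (median -0.19), and none passed edgeR by group. With the pairs by number as a block, Ccl12 (-2.91, edgeR adjusted p = 0.000199) and Ccl11 (-2.54, edgeR adjusted p = 0.00502) fell with S6K1 loss. Ccl2 differed by -1.08 and -0.21 in these comparisons, against -2.51 and -3.01 for Ccl6, and this difference between genes was not tested. Per 1000 Lyz2 counts, Ccl2 was at 322 to 467 in S6K1 WT RAS and at 496 to 1075 in KO RAS, so it was higher in KO on this scale, where Ccl9 was lower.

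**Figure D5:**
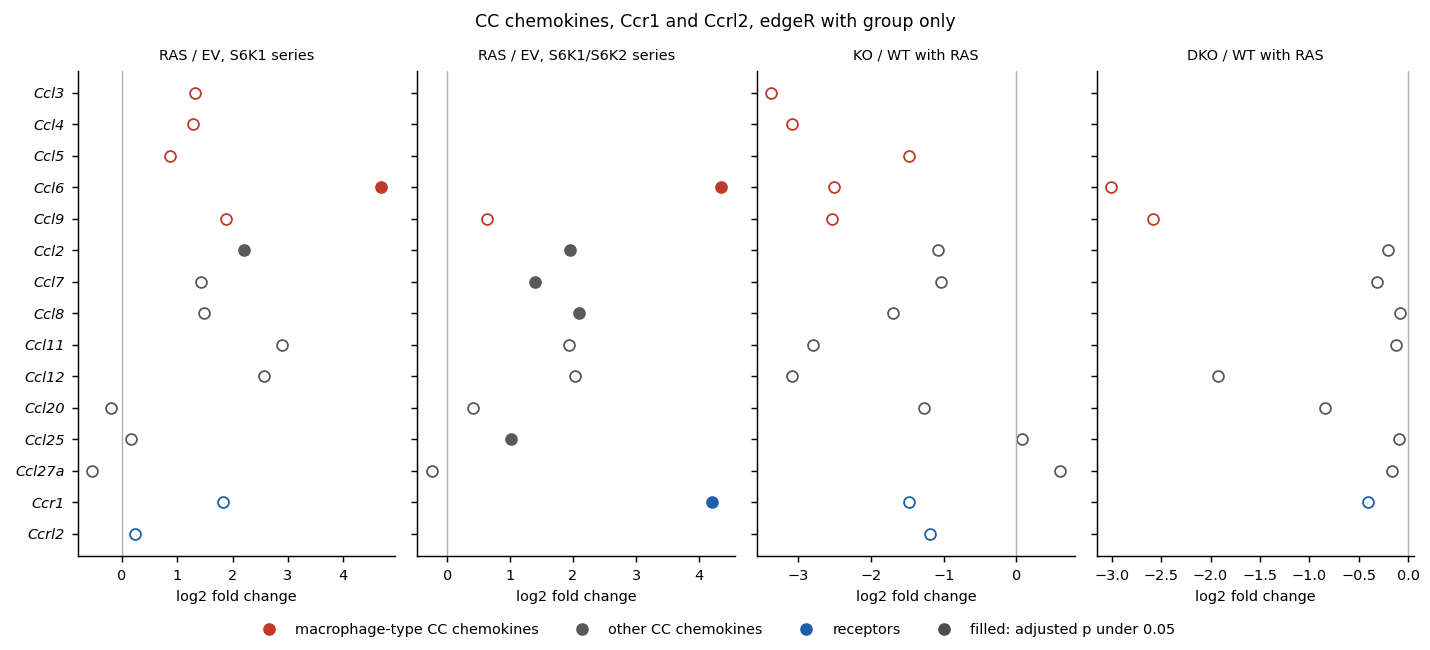
Fitted log2 fold changes of the 5 chemokines, the other CC chemokines and the receptors Ccr1 and Ccrl2 in 4 comparisons, with 1 point per gene that passed the filter. Filled points have an edgeR adjusted p under 0.05 by group; in the RAS panels Ccl6, Ccl2 and, in the S6K1/S6K2 series, Ccl7, Ccl8, Ccl25 and Ccr1 are filled, and none is in the loss panels.

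Regulators linked to chemokine genes were taken as a list of 21, among them cytokines, Toll-like receptors, NF-kappaB and interferon regulatory factors. The list also holds Nfkbia, an inhibitor of NF-kappaB, and Spi1, which is on the macrophage list too. In the S6K1 series 12 of 18 tested were higher with RAS and none passed edgeR by group. In the S6K1/S6K2 series Nfkbiz, a nuclear partner of NF-kappaB, rose by 1.17 (edgeR adjusted p = 0.0321), whereas Irf1, an interferon regulatory factor, changed by -1.31 (edgeR adjusted p = 0.00295) and Myd88, the adaptor of Toll-like receptors, by -1.12 (edgeR adjusted p = 0.00184). The median of the list was 0.05 in the S6K1 and -0.27 in the S6K1/S6K2 series. With S6K1 loss 16 of 18 were lower, with a median of -0.29, and with loss of both kinases 11 of 17, with a median of -0.04, and none passed edgeR by group in either. With the blocks, 4 rose and 1 fell with RAS in the S6K1 series, 1 rose and 3 fell with RAS in the other, and 7 fell with S6K1 loss, led by Tnf at -2.53 (edgeR adjusted p = 0.000331). The 5 chemokines and the macrophage list, with medians of -2.54 and -2.21, were further below WT with S6K1 loss than this list as a whole. The interferon-stimulated genes had a median of 1.24 with RAS in the S6K1 series, where 14 of 14 were higher and none passed by group (7 with the block), and -1.09 in the S6K1/S6K2 series, where 13 of 14 were lower. The RAS and loss comparisons within a series share the WT RAS libraries.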

How the data were processed

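Raw read counts per gene were deposited by the authors as a single table of 18 libraries and 55401 versioned Ensembl genes, of which 25336 had no count. Per the study's methods, RNA was sequenced from TruSeq Stranded mRNA libraries as single-end 50-bp reads, demultiplexed with CASAVA, mapped to mm9 with TopHat and counted with HTSeq. The submitters' processing notes list mm10, CASAVA, STAR 2.7.1a and DESeq2 1.28.1 instead, and the gene identifiers belong to an annotation later than the NCBIM37 one used here for positions, so the build of the counts is unsettled. Symbols were matched for 32589 identifiers, which held 99.1% of counts, and no column was left out.

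The members and the gene lists were chosen with earlier results of these data known. Depth was 8319445 to 14402442 counts, and the 3-count floor covers counting error only. Each series was fitted separately by group with edgeR 4.0.16 (quasi-likelihood test, TMM scaling, filterByExpr, Benjamini-Hochberg adjustment over all genes, threshold 0.05) in R 4.3.3, and differences between series were fitted over all 18 libraries. DESeq2 1.42.0 was an alternative, with other scalings, filters, sets of libraries and each library left out in turn. The scripts were tested on simulated data. Relations and ratios were tested with scipy 1.17.1, with 0.5 added to CPM or counts. Named genes were the 5 members, Lyz2 and the 3 most abundant other macrophage genes, receptors above the floor, listed genes that passed (at most 4 of a list) and the 5 genes most like each member. Some listed genes are not reported here.

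EV and RAS of 1 number were taken as the same WT MEFs, because they share a number in the labels. S6K1 WT and KO MEFs were littermates, taken as pairs by number, although the labels do not give the litter. Correlations of same-numbered deviations from the group means were 0.725, 0.467 and 0.679 for RAS in the S6K1 series and 0.725, 0.419 and 0.630 for S6K1 loss. For RAS in the S6K1/S6K2 series they were 0.370, 0.291 and 0.321. Same-numbered DKO and WT libraries, which share only a number, had 0.271, 0.472 and -0.042. These ranges overlap and libraries of unlike number were not compared, so the values cannot tell true pairs from others. Libraries of a group came from separate embryos.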

Additional observations from a re-analysis of the deposited data

How the results depend on the processing

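Of the members' changes, 82 of 84 kept their direction and their side of the threshold when 1 library was left out, and 128 of 151 did so under the other alternatives, where 19 passed the threshold only there and 4 changed sign. Ccl6 rose with RAS in every fit with a library left out, by 4.10 to 5.15 in the S6K1 series and 3.65 to 5.22 in the S6K1/S6K2 series. With RAS in the S6K1 series, 5085 genes were called with the replicate block, and 4 members (2 without a filter on low counts). With RAS in the S6K1/S6K2 series, the block called 2 members, both higher. Omitting the filter there also called 2, of which 1 was higher and 1, Ccl5, was lower. A minimum of 10 counts in every library called 0, since it left no member to test. S6K1 loss called 0 genes among the 6 compared libraries alone, 96 by DESeq2, 4 with all 18 libraries fitted, 108 without a filter and 583 with the replicate block, and the members called were 2 by DESeq2, 4 without a filter and 5 with the block. Loss of both kinases called 10 genes by DESeq2, 7 with all 18 libraries and 11 without a filter (1 member). Same-numbered DKO and WT libraries share only a number, with correlations of 0.271, 0.472 and -0.042, and their replicate block called 8 genes, both tested members among them (Ccl6 -3.35, edgeR adjusted p = 0.0343; Ccl9 -2.66, edgeR adjusted p = 0.0491). The difference in RAS effect called 139 genes by DESeq2, 204 without a filter and 58 with the block. That in loss effect for Ccl9, 0.01, became -0.0017 with DESeq2 size factors, -0.016 without a filter, -0.015 with upper-quartile scaling and -0.15 with the block. Ccl5 turned to 0.64 per Lyz2 count and 0.74 per macrophage-list count with S6K1 loss, scalings chosen after seeing the data. By unadjusted p, in the S6K1/S6K2 series alone r to Lyz2 no longer passed for Ccl4 (0.765) and Ccl5 (0.368), nor r to the interferon list for Ccl3 (0.813), Ccl5 (0.604) and Ccl6 (0.666), and as deviations from group means r to Lyz2 did not pass for Ccl5 (0.508). The cause of these shifts was not tested.

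Leaving out 1 library gave 1043 to 1818 genes called with RAS in the S6K1 series, with 1043 without WT RAS replicate 2, 1136 without EV replicate 2 and 1185 without WT RAS replicate 1, and 1 to 2 members. It gave 2050 to 4199 genes with RAS in the S6K1/S6K2 series, with 2050 and 2195 when WT RAS replicates 2 and 3 were left out and 2316 when EV replicate 2 was, where Ccl9 ran from -0.44 without WT RAS replicate 1 to 2.12 without EV replicate 1. S6K1 loss called 0 to 22 genes, 22 without WT RAS replicate 3 and 0 without any other library, and loss of both kinases called 2 without WT RAS replicate 1 and 1 without any other. Ccl3, Ccl4 and Ccl5 had under 10 counts in most libraries of the S6K1/S6K2 series, which limits what their values there can show.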
